A study of Mus musculus with 2 samples.

Results

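Antiviral interferon-stimulated genes encode the proteins with which a cell meets a virus, and their transcripts were described here in stretched and non-stretched mouse skin. They were chosen by gene name and a floor on counts. The list took every gene symbol of the Ifi, Ifit, Ifitm and Oas series and 21 further genes of the same response, among them Isg15, Mx1, Mx2, Rsad2, Usp18, Zbp1 and Bst2, and kept those with more than 3 counts in at least 1 library. Of 24421 gene symbols, 58 matched the names and 53 passed that floor, beside 16255 genes above the floor in all. The other 5, Ifi27l2b, Ifi44l, Ifitm7, Oas1d and Oas1h, had 3 counts or fewer in both libraries. Just inside the floor was Ifit1bl2, with 7 and 2 counts, and just outside was Ifi27l2b, with 0 and 2.

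Poly(A)-selected RNA came from whole-layer back skin of wild-type C57BL6/J mice, in 1 library of skin held at 33% strain for 5 days and 1 library of skin kept without strain for the same 5 days. The methods of the study describe 8-week-old female animals in telogen, the resting phase of the hair cycle. They also state that stretch was topped up each day and that skin to which the stretching device was attached was discarded. No transgene, deletion or drug was part of either group. The labels do not say how many animals went into a library. With 1 library per condition no difference has a replicate check, so no p-value or SD is given, and each difference compares these 2 libraries and not the conditions. The intervals in the text are exact 95% Clopper-Pearson intervals and cover counting error only.

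The counts summed to 14152379 in non-stretched and 11648655 in stretched skin, so that 3 counts equalled 0.212 and 0.258 CPM, the counts of a gene per 1000000 counts of its library. The keratinocyte genes Krt5 and Krt14 had 61216 and 38376 counts in non-stretched skin and 50601 and 38380 in stretched skin, so the labelled tissue showed its defining transcripts in both libraries. A log2 ratio is that of CPM, stretched over non-stretched, with counts of 3 or fewer set to 3. Over the 16255 genes its median was -0.12, with the middle 50% of genes between -0.38 and 0.19. Scaling by TMM, upper quartile or median of ratios in place of totals added 0.10 to 0.11 to every log2 ratio, and no member changed sign.

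Interferons are secreted by cells that sense foreign or misplaced nucleic acid. Type I and III interferons act through their receptors and the kinases JAK1 and TYK2 on a complex named ISGF3, which holds STAT2 and IRF9 and binds the interferon-stimulated response element (ISRE) in front of target genes. Type II interferon acts through another element, the gamma-activated site (GAS). The targets block successive steps of infection: the IFITM proteins act at entry, the IFIT and OAS proteins on viral RNA, viperin on its synthesis and tetherin on the release of new particles. In skin, keratinocytes, fibroblasts and immune cells all answer interferon.

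The ISRE core was not searched for in choosing the genes, but it belongs to the kind of gene the names stand for. Its share among the members therefore says nothing about the difference between the libraries. The promoters of the upregulated members with the most counts that hold the core upstream of the start are shown first. Each is RefSeq sequence of build GRCm38.p6, 5′ to 3′ on the strand of the gene, from at most 200 bases before the annotated start, without any base inside an exon. Capitals mark matches to the ISRE core, which is GAAA, 2 bases of any kind and GAAA again, or its reverse complement, which is TTTC, 2 bases of any kind and TTTC, and matches may overlap. Bst2 lies on the minus strand at chr8:71537473-71537672, Ifit3 on the plus strand at chr19:34583329-34583528, Ifit1 on the plus strand at chr19:34640744-34640870, Isg15 on the minus strand at chr4:156200819-156201018 and Oas1a on the minus strand at chr5:120907526-120907725.
Bst2: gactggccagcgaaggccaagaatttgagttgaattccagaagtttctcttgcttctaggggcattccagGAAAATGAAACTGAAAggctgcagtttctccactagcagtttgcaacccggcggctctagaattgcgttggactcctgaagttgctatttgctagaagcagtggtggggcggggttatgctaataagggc
Ifit3: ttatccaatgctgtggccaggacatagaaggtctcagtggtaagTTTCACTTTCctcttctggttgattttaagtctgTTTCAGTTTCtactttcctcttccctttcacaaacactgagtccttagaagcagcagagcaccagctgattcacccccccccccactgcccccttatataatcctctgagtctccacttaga
Ifit1: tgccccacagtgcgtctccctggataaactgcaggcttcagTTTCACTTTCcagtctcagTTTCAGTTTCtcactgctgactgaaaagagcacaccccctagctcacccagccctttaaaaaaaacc
Isg15: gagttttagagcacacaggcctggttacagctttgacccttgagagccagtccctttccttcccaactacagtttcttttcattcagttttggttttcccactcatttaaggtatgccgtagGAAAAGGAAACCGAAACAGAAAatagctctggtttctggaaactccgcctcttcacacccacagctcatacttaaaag
Oas1a: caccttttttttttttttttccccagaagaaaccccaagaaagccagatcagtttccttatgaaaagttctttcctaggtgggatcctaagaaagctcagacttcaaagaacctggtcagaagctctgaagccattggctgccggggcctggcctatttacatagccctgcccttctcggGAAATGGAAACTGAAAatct

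The Isg15 promoter held 3 overlapping matches between 78 and 57 bases before its start, and Bst2 and Oas1a each held 2 overlapping ones. In Ifit3 and Ifit1 the 2 matches stood apart and read in the opposite direction. Of the 53 members, 39 had a promoter window in the RefSeq table, from 250 bases before to 50 bases after the start. The ISRE core was in the windows of 19 of these 39 (48.7%), against 3.77% of the 12225 measured genes with a window and 3.44% of all 32851 windows. The GAS pattern TTCNNNGAA, which reads the same on both strands, was in 10 of the 39 (25.6%), against 8.53% of measured genes and 8.30% of all windows. A match is a run of letters and not a shown binding site.

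In the stretched library 49 of the 53 members had the higher level and 4 the lower. The median log2 ratio was 1.12, against -0.12 over all genes, and the members ran from -0.94 to 3.09. At least 2-fold higher were 27 members (50.9%), against 6.32% of all genes above the floor, and at least 2-fold lower was none, against 5.47%. The counting interval lay wholly above 0 for 45 members (84.9%), against 18.1% of all genes, and wholly below 0 for 1, Ifitm6, against 33.5%. Summed over the members, the counts went from 12733 to 19249, which is 900 and 1652 CPM, a log2 ratio of 0.88 (0.84 to 0.91).

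The rule of the study asks for a fold change of at least 2 and for a product of the FPKM values of both libraries, named EV, above 10. FPKM, the count of a gene scaled by its exon length and by the total of its library, was computed here from the counts, with 1 added. Over all genes this gave 285 upregulated and 266 downregulated. The paper reports more upregulated genes, so the calls here are a recomputation and not the study's own list. Since a high level in 1 library can carry a gene past EV, the share below describes the members that passed and no more. EV was above 10 for 35 members, and 15 of these (42.9%) were upregulated, against 2.61% of the 10910 genes that passed EV. None was downregulated, against 2.44%. The count was 11 of 28 that passed with 0 and 11 of 29 with 0.1 added to FPKM in place of 1, and 4 of 13 with EV above 100. The shares were 39.3%, 37.9% and 30.8%, against 2.94%, 2.94% and 2.56% of all genes that passed. The 15 were Ifit1, Ifit3, Ifitm3, Oas1a, Oas2, Oasl2, Ifi202b, Ifi204, Ifi47, Dhx58, Zbp1, Isg15, Usp18, Bst2 and Rtp4, at least 1 from each of 8 of the 11 role groups.

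**Figure D1:**
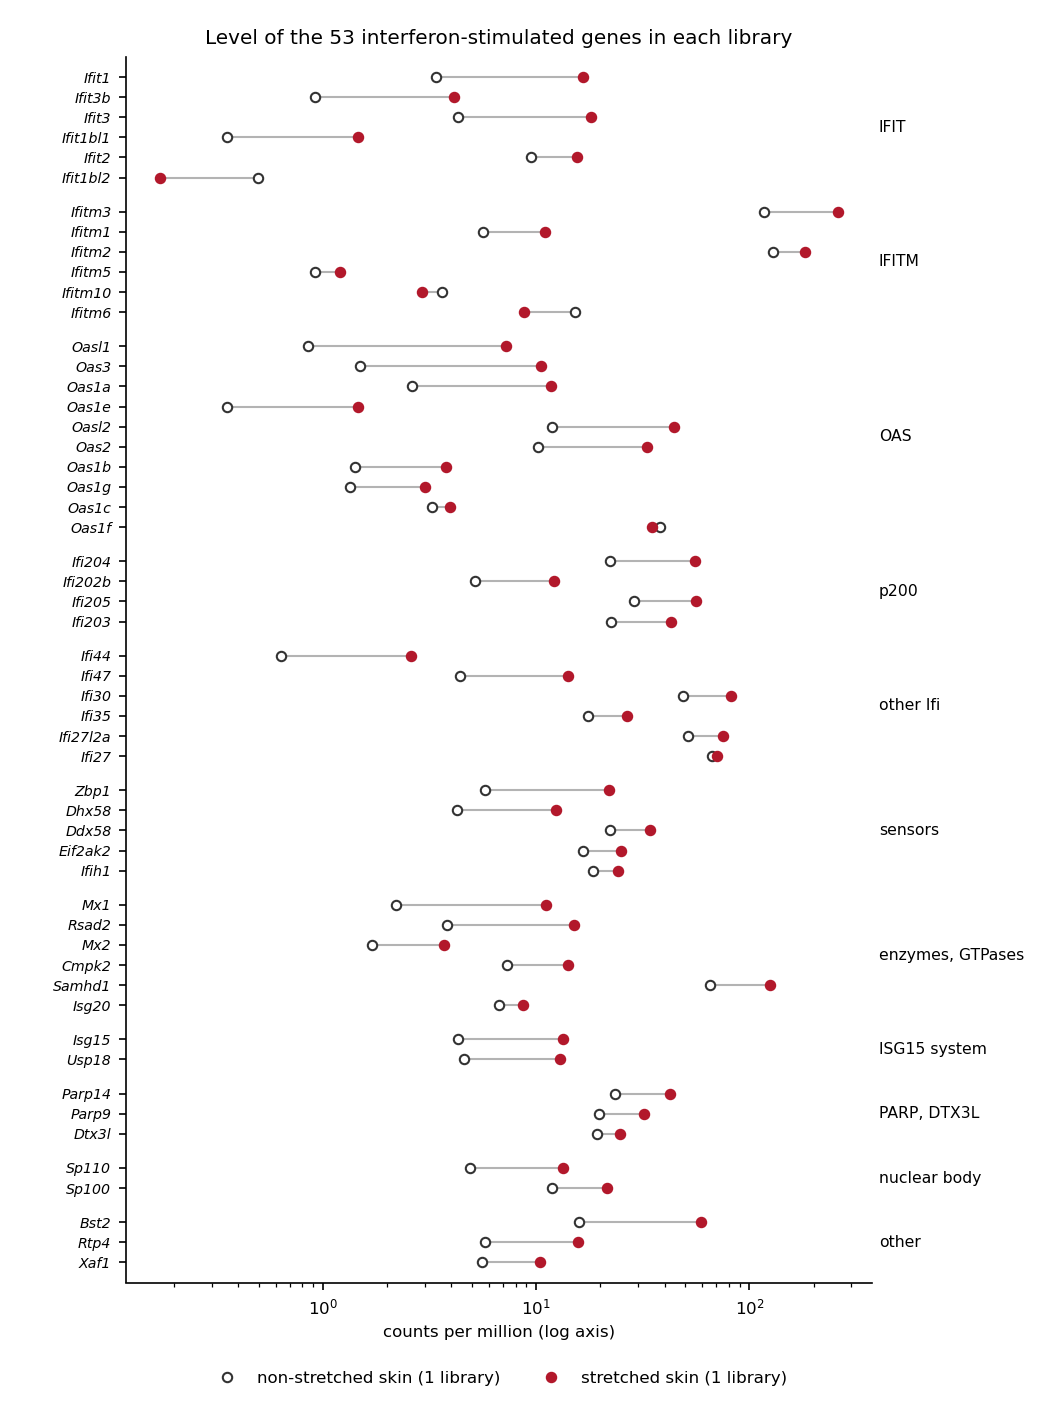
The CPM of each of the 53 members, on a log axis, in the library of non-stretched skin (open points) and of stretched skin (filled points), grouped by role. The filled point lies to the right for 49 members, and Ifitm2 and Ifitm3, the members with the highest CPM, lie above 100 CPM in both libraries.

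The IFITM proteins sit in endosomal and plasma membranes and hinder viruses at entry. Ifitm3, on chr7:141009586-141010770, had 1662 counts (117 CPM) in non-stretched and 3020 counts (259 CPM) in stretched skin, a log2 ratio of 1.14 (1.06 to 1.23). Per length it was the most abundant member in stretched skin, at 382 FPKM, from 173 FPKM in non-stretched skin. Ifitm2, a close relative, had 1826 counts (129 CPM) and 2113 counts (181 CPM), a log2 ratio of 0.49 (0.40 to 0.58). The order of this pair was therefore Ifitm2 above Ifitm3 in non-stretched and Ifitm3 above Ifitm2 in stretched skin, at 197 against 173 FPKM and 277 against 382 FPKM. Of the 76-base stretches of Ifitm2, 41.7% also occur in another gene, and 40.9% of its exonic bases lie in exons of another gene, so its counts are uncertain. For Ifitm3 0.498% of stretches are shared.

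The remaining Ifitm genes did not move as 1 group. Ifitm1 had 80 and 128 counts, a log2 ratio of 0.96 (0.54 to 1.38), and Ifitm5, known from bone, had 13 and 14 counts with 29.7% of its exonic bases in other exons. Ifitm6, which lies near Ifitm3 at chr7:141015699-141017924, had 214 counts (15.1 CPM) in non-stretched and 102 counts (8.76 CPM) in stretched skin. Its log2 ratio of -0.79 (-1.14 to -0.44) was the only one of the list with an interval wholly below 0. Ifitm10 had 51 and 34 counts, a log2 ratio of -0.30 with an interval that held 0 (-0.97 to 0.35). The median of the 6 Ifitm genes was 0.44.

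The IFIT proteins bind viral RNA, such as RNA without the methyl mark of the host cap, and keep it from being translated. Their genes form a cluster on chromosome 19. Ifit1 at chr19:34640871-34650009 had 48 counts (3.39 CPM) in non-stretched and 193 counts (16.6 CPM) in stretched skin, a log2 ratio of 2.29 (1.83 to 2.78). Ifit3 had 61 counts (4.31 CPM) and 210 counts (18.0 CPM), a log2 ratio of 2.06 (1.65 to 2.50). Its copy Ifit3b had 13 and 48 counts, a log2 ratio of 2.17 (1.26 to 3.17). Ifit3 and Ifit3b share 40.7% and 35.3% of their 76-base stretches, so the split of reads between them is uncertain, although both were higher.

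Ifit2 had the most counts of the Ifit genes over both libraries together, and the smallest ratio among those that were higher. It had 134 counts (9.47 CPM) and 181 counts (15.5 CPM), a log2 ratio of 0.71 (0.38 to 1.05). Per length, Ifit2 and Ifit3 stood at 2.41 and 2.47 FPKM in non-stretched skin, and at 3.96 and 10.3 FPKM in stretched skin. Ifit1bl1 had 5 and 17 counts, a log2 ratio of 2.05 (0.55 to 3.84). Ifit1bl2 had 7 and 2 counts, a raw log2 ratio of -1.53 with an interval from -4.83 to 0.87, so no direction can be read. Ifit1bl2 and Ifit1 lie head to head, and the ISRE matches in their windows are the same bases, at 34640785 to 34640794 and 34640804 to 34640813 of chromosome 19. The 6 Ifit genes had a median of 2.06, and 4 of them were at least 2-fold higher.

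The oligoadenylate synthetases make a short adenylate chain on meeting double-stranded RNA, and this chain switches on RNase L. Most of them lie side by side on chromosome 5. Of the 10 Oas genes, 8 were at least 2-fold higher, and the family held the largest ratios of the list. Oasl1, an OAS-like protein known to limit the translation of Irf7, had 12 counts (0.848 CPM) in non-stretched and 84 counts (7.21 CPM) in stretched skin, a log2 ratio of 3.09 (2.21 to 4.10). Oas3 had 21 counts (1.48 CPM) and 123 counts (10.6 CPM), a log2 ratio of 2.83 (2.16 to 3.57). Both were too low for the EV filter, with an EV of 4.99 for Oasl1 and 3.02 for Oas3.

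Of the 3 Oas genes that were upregulated, Oasl2 had the most counts, with 167 (11.8 CPM) and 516 (44.3 CPM) and a log2 ratio of 1.91 (1.65 to 2.17). Oas2 had 145 and 385 counts, a log2 ratio of 1.69 (1.41 to 1.98). Oas1a at chr5:120896256-120907521 had 37 and 137 counts, a log2 ratio of 2.17 (1.64 to 2.73). Of its 76-base stretches 47.3% occur elsewhere too, mainly in Oas1g, which had 19 and 35 counts. Oas1b, whose intact form protects mice from flaviviruses and which is truncated in most laboratory strains, had 20 and 44 counts, a log2 ratio of 1.42 (0.63 to 2.26). Oas1e had 5 and 17 counts.

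Oas1f and Oas1c were the 2 Oas genes with intervals that held 0, although that of Oas1c overlapped those of Oas1b, Oas1e and Oas1g. Oas1f at chr5:120847367-120857986 had 538 counts (38.01 CPM) in non-stretched and 407 counts (34.9 CPM) in stretched skin, a log2 ratio of -0.12 (-0.31 to 0.07). It was the Oas gene with the highest level in non-stretched skin, at 25.7 FPKM, where the next was Oas2 at 2.30 FPKM. Oas1c had 46 counts in each library, a log2 ratio of 0.28 (-0.34 to 0.90), although its window holds 2 overlapping ISRE matches. The lowest Oas gene in non-stretched skin was Oas1e, at 0.196 FPKM.

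**Figure D2:**
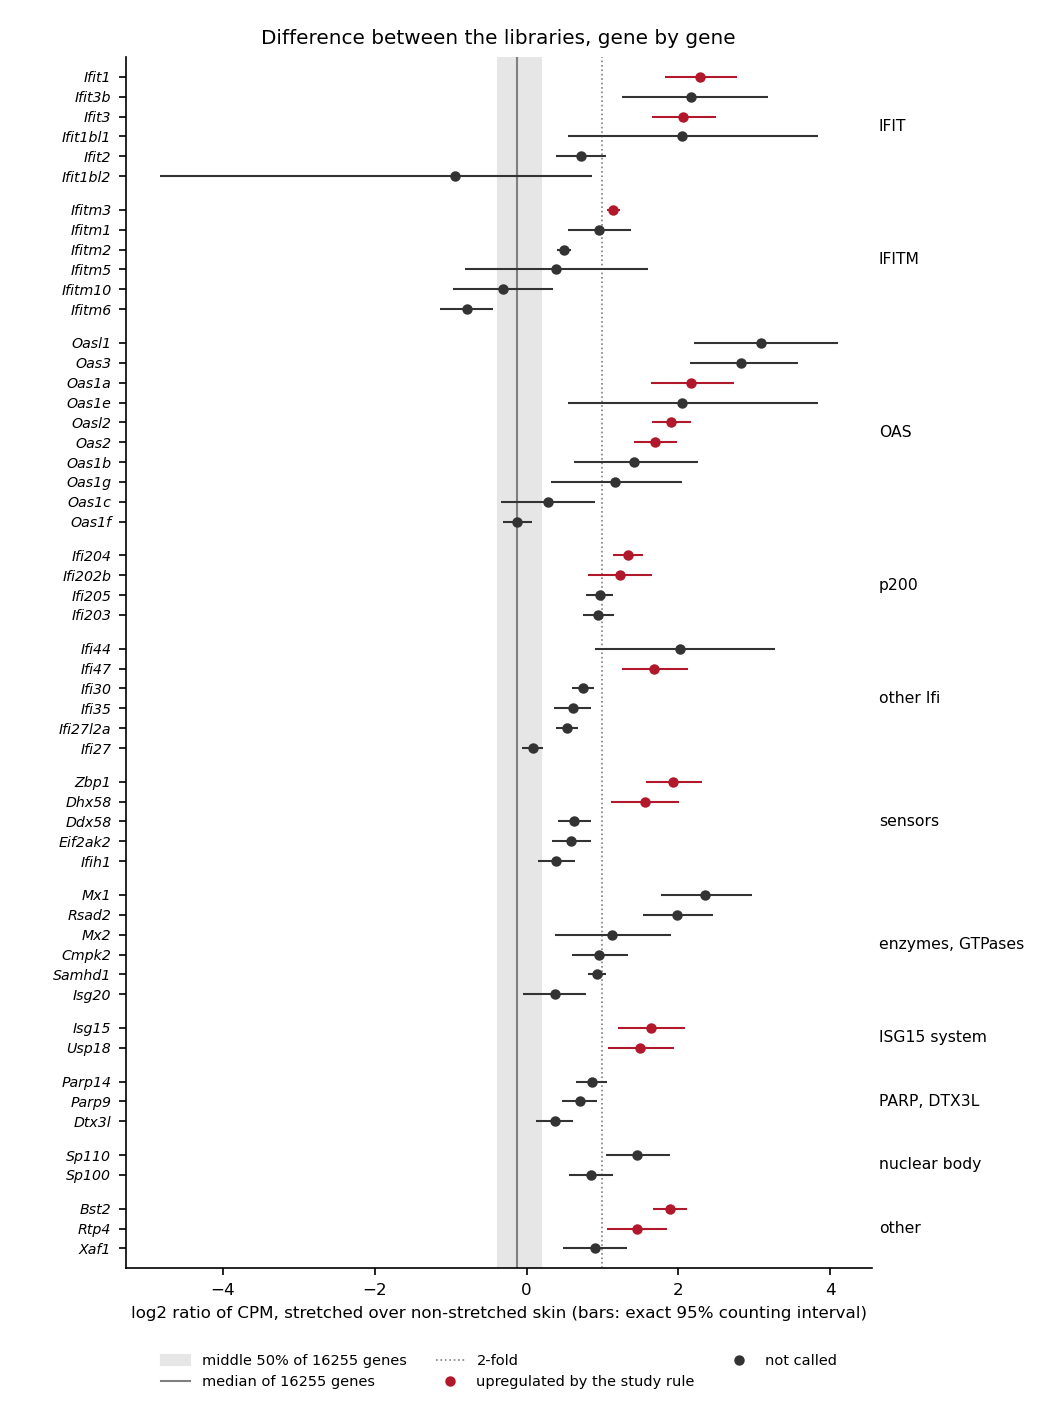
The log2 ratio of CPM, stretched over non-stretched skin, of each member with its exact 95% counting interval, over the median (grey line) and the middle 50% (grey band) of 16255 genes. The 15 members upregulated by the study rule are in red, the dotted line marks 2-fold, Ifit1bl2 is drawn with its 2 counts set to 3, and Ifitm6 is the only member with an interval wholly to the left of 0.

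Zbp1 and Dhx58 had the largest ratios of the 5 cytosolic sensors. Zbp1, a sensor of left-handed nucleic acid that can start necroptosis, had 81 counts (5.72 CPM) in non-stretched and 255 counts (21.9 CPM) in stretched skin, a log2 ratio of 1.94 (1.57 to 2.31). Dhx58 encodes LGP2, the helper of both other RNA helicases, and had 60 and 145 counts, a log2 ratio of 1.55 (1.11 to 2.01). The helicases that signal themselves had smaller ratios. Ddx58, which encodes RIG-I, had 313 and 398 counts, a log2 ratio of 0.63 (0.41 to 0.85), and Ifih1, which encodes MDA5, had 261 and 282 counts, a log2 ratio of 0.39 (0.14 to 0.64). Eif2ak2, the kinase PKR that halts translation, had 234 and 290 counts, a log2 ratio of 0.59 (0.34 to 0.85).

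The enzymes and GTPases that act on virus or on nucleotides had a median of 1.04, and 3 of the 6 were at least 2-fold higher. Those 3 did not pass EV. The other 3 passed, and none of them was upregulated by the study rule, against 2.61% of all genes that passed. Mx1, a dynamin-like GTPase whose allele in most inbred strains, C57BL/6 among them, is not functional, had 31 counts (2.19 CPM) and 130 counts (11.2 CPM), a log2 ratio of 2.35 (1.77 to 2.96). Rsad2, or viperin, had 54 counts (3.82 CPM) and 176 counts (15.1 CPM), a log2 ratio of 1.99 (1.54 to 2.45). EV was 6.23 for Mx1 and 8.43 for Rsad2, under the limit of 10. Cmpk2, a nucleotide kinase next to Rsad2 on chromosome 12, had 103 and 165 counts, a log2 ratio of 0.96 (0.60 to 1.33). The counting intervals of this pair of neighbours did not overlap.

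Samhd1, which breaks down the nucleotides that reverse transcription needs, was the most abundant gene of this group, at 7.14 and 13.6 FPKM. It had 924 counts (65.3 CPM) and 1448 counts (124 CPM), a log2 ratio of 0.93 (0.81 to 1.05). Mx2 had 24 and 43 counts, a log2 ratio of 1.12 (0.37 to 1.91). Isg20, an RNA exonuclease, had 95 and 101 counts, a log2 ratio of 0.37 with an interval that held 0 (-0.05 to 0.79).

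Isg15, a ubiquitin-like protein that is joined to other proteins and also secreted, lies at chr4:156199424-156200818. It had 61 counts (4.31 CPM) in non-stretched and 156 counts (13.4 CPM) in stretched skin, a log2 ratio of 1.64 (1.20 to 2.09). Usp18, which removes ISG15 from its targets and also damps the type I receptor, had 65 counts (4.59 CPM) and 151 counts (13.0 CPM), a log2 ratio of 1.50 (1.07 to 1.94). The counting intervals of the modifier and its protease overlapped. The 4 enzymes of conjugation, listed apart from the members, were also higher. Uba7, the activating enzyme, had 170 and 304 counts with a log2 ratio of 1.12, and Ube2l6, the conjugating enzyme, had 159 and 301 counts with a log2 ratio of 1.20. Ube2l6 was upregulated by the study rule, and the ligases Trim25, with 738 and 961 counts, and Herc6, with 58 and 71, had log2 ratios of 0.66 (0.52 to 0.80) and 0.57 (0.05 to 1.10).

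Bst2 encodes tetherin, which holds budding virus to the cell surface. At chr8:71534255-71537456 it had 225 counts (15.9 CPM) in non-stretched and 687 counts (59.0 CPM) in stretched skin, a log2 ratio of 1.89 (1.67 to 2.11). At 17.6 and 65.3 FPKM it was the member with the highest level among those that differed more than 3-fold. Rtp4, a chaperone of receptors, had 81 and 182 counts, a log2 ratio of 1.45 (1.06 to 1.84), and Xaf1, which favours apoptosis, had 79 and 121 counts, a log2 ratio of 0.90 (0.48 to 1.32). For Rtp4, 10.4% of the stretches occur in another gene as well, and 13.9% of its exonic bases lie in other exons.

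The p200 proteins bind DNA, several of them as sensors or regulators of inflammasomes, and their genes lie together on chromosome 1. All 4 had intervals above 0 within a narrow range of log2 ratios, from 0.95 to 1.33. Ifi204 had 313 counts (22.1 CPM) and 649 counts (55.7 CPM), a log2 ratio of 1.33 (1.14 to 1.53). Ifi202b, an inhibitor of the AIM2 inflammasome, had 73 and 141 counts, a log2 ratio of 1.23 (0.81 to 1.66). Ifi205, with the most counts of the 4, had 408 and 654, a log2 ratio of 0.96 (0.78 to 1.14), and Ifi203 had 316 and 501, a log2 ratio of 0.95 (0.74 to 1.15). Ifi204 and Ifi205 hold 13.1% and 16.6% of stretches that occur elsewhere.

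The other Ifi genes have little in common but the name, and their ratios were spread widely. Ifi47, a GTPase of the immunity-related family, had 62 and 164 counts, a log2 ratio of 1.68 (1.25 to 2.13), and Ifi44 had 9 and 30 counts, a log2 ratio of 2.02 (0.91 to 3.28). Ifi30, the lysosomal thiol reductase GILT of antigen processing, had 694 and 957 counts, a log2 ratio of 0.74 (0.60 to 0.89). Ifi27 and Ifi27l2a are neighbours on chromosome 12 and were both abundant in non-stretched skin. Ifi27l2a had 733 counts (51.8 CPM) and 874 counts (75.03 CPM), a log2 ratio of 0.53 (0.39 to 0.68), at 112 and 162 FPKM. Ifi27 had 943 counts (66.6 CPM) and 822 counts (70.6 CPM), a log2 ratio of 0.08 with an interval that held 0 (-0.05 to 0.22). Ifi35 had 248 and 311 counts, a log2 ratio of 0.61 (0.36 to 0.85), and 16.8% of its exonic bases lie in exons of another gene.

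Parp9 and Dtx3l encode partners in 1 complex and share a promoter region on chromosome 16, beside Parp14. Parp14 had 331 and 493 counts, a log2 ratio of 0.86 (0.65 to 1.06), Parp9 had 279 and 373, a log2 ratio of 0.70 (0.47 to 0.93), and Dtx3l had 272 and 289, a log2 ratio of 0.37 (0.12 to 0.61). No gene of this group was 2-fold higher. Of the nuclear body proteins, Sp110, known from resistance to intracellular bacteria, had 69 and 156 counts, a log2 ratio of 1.46 (1.04 to 1.89), with 30.0% of its stretches shared. Sp100 had 168 and 249 counts, a log2 ratio of 0.85 (0.56 to 1.14).

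The ratios were smaller among the members with the most counts. When the 53 members were ordered by mean CPM and divided into 3 groups of level, the low group (0.333 to 8.32 CPM) had a median log2 ratio of 1.29, with 11 of 18 at least 2-fold higher. The middle group (8.34 to 21.6 CPM) had a median of 1.48, with 12 of 18, and the high group (22.0 to 188 CPM) one of 0.74, with 4 of 17. Over all genes in the same 3 ranges of level, 13.0%, 5.28% and 2.04% were at least 2-fold higher, so the members were above that background in each range. The 4 members with the most counts, Ifitm3, Ifitm2, Samhd1 and Ifi27, had a log2 ratio of 0.75 in sum, and the other 49 members one of 0.96. Ifitm2 and Ifitm3 alone held 14.3% and 13.1% of the members' counts in non-stretched skin, and 10.98% and 15.7% in stretched skin.

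**Figure D3:**
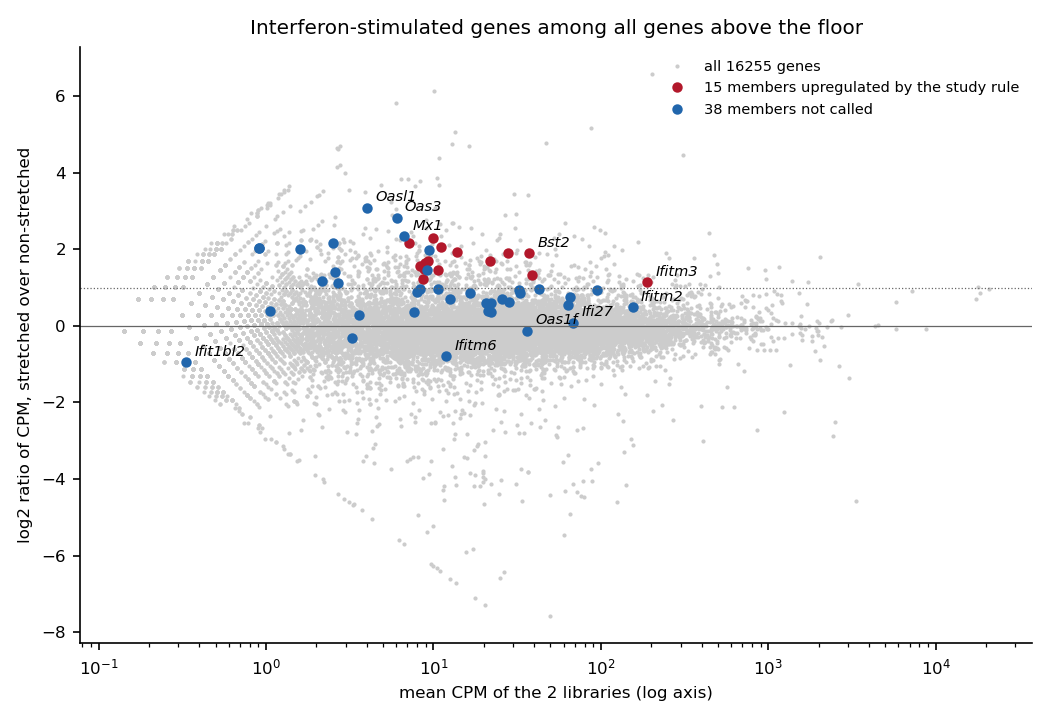
The log2 ratio of CPM, stretched over non-stretched skin, against the mean CPM of both libraries on a log axis, for all 16255 genes above the floor (grey) and the members (coloured). Nearly all members lie above 0, the largest ratios belong to Oasl1 and Oas3 at low levels, and the 15 called members (red) include Ifitm3 at the high end.

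Members with the ISRE core in the window did not all differ strongly. The 19 with the core had a median log2 ratio of 1.16, with 11 at least 2-fold higher, and the 20 without it had a median of 0.87, with 6 at least 2-fold higher. For the GAS pattern the order was the other way. The 10 members with it had a median of 0.82, with 4 at least 2-fold higher, and the 29 without it one of 0.96, with 13. Among the 12186 measured genes that are no members, 442 held the core, and 11.99% of these were at least 2-fold higher, against 5.72% of those without it. The members' matches lay from 188 bases before to 42 bases after the start. Oasl1, with the largest ratio, had no ISRE core in its window. The letters searched were the core only, so variants of the element were not counted.

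**Figure D4:**
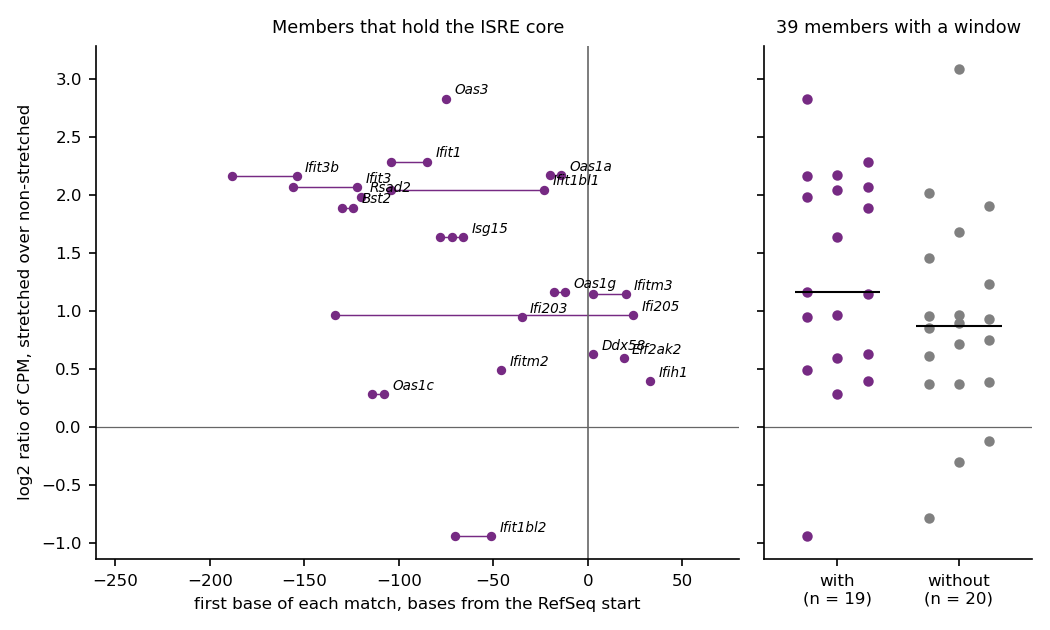
Left, the log2 ratio of the 19 members that hold the ISRE core against the distance of each match from the RefSeq start, in bases, with a line joining the matches of a gene (those of Ifit1bl1 are in 2 windows). Right, the ratios of the 39 members with a window, with and without the core, and their medians (bars) of 1.16 and 0.87.

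No interferon transcript was found above the floor. Of 21 interferon genes listed, 18 had 0 counts in both libraries, including every Ifna gene listed and Ifnb1, and Ifnk, Ifnz and Ifng had at most 1 count in a library. A level of up to 0.212 CPM in non-stretched and 0.258 CPM in stretched skin is compatible with a count of 0. Of the 6 receptor genes, 5 (83.3%) had intervals above 0, against 18.1% of all genes, and none was 2-fold higher, against 6.32%. Their median was 0.30, above that of all genes and below that of the members. Ifnar2, a chain of the type I receptor, had the largest ratio, with 326 and 422 counts and a log2 ratio of 0.65 (0.44 to 0.87), while Ifnar1 had 844 and 880 counts, a log2 ratio of 0.34 (0.20 to 0.48). Ifngr1, of the type II receptor, had the most counts, 1498 and 1478, and a log2 ratio of 0.26 (0.16 to 0.37). Ifnlr1, the chain particular to type III interferon, had 185 and 135 counts, a log2 ratio of -0.17 (-0.50 to 0.15).

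Of 9 kinases and transcription factors of the pathway, 7 (77.8%) had intervals above 0, against 18.1% of all genes. Irf7 had the largest ratio by far. This factor drives the interferon genes themselves and is a target of ISGF3. It had 181 counts in non-stretched and 587 in stretched skin, a log2 ratio of 1.98 (1.74 to 2.23). Of the 9, which all passed EV, it was the only one upregulated (11.1%), against 2.61% of all genes that passed. Irf9 and Stat2, parts of ISGF3, differed less. Irf9 had 474 and 602 counts, a log2 ratio of 0.63 (0.45 to 0.80), and Stat2 had 525 and 653 counts, a log2 ratio of 0.60 (0.43 to 0.76). Jak1, with the most counts of the list, 2734 and 2499, had a log2 ratio of 0.15 (0.07 to 0.23). Jak2 had one of -0.07, which turned positive under TMM, upper quartile and median of ratios.

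Among 15 pattern sensors and adaptors, 12 (80%) had intervals above 0, against 18.1% of all genes, and 1 below, against 33.5%. The Toll-like receptors Tlr13, Tlr9 and Tlr7, which sense nucleic acid in the endosome, had the largest ratios. Tlr13 had 36 and 136 counts, a log2 ratio of 2.20 (1.66 to 2.77), Tlr9 had 29 and 100, a log2 ratio of 2.07 (1.46 to 2.72), and Tlr7 had 60 and 143, a log2 ratio of 1.53 (1.09 to 1.99). EV of these 3 was under 10, from 5.51 to 8.17. Unc93b1, the chaperone that brings these receptors to the endosome, had 677 and 1476 counts, a log2 ratio of 1.41 (1.27 to 1.54). Of the 9 genes of the list that passed EV it was the only one upregulated (11.1%), against 2.61% of all genes that passed. Tlr8 had 43 and 79 counts, a log2 ratio of 1.16 (0.60 to 1.73). Tlr3, the endosomal sensor of double-stranded RNA, had 131 and 125 counts, a log2 ratio of 0.21 (-0.15 to 0.58). Mavs, the adaptor of RIG-I and MDA5, had 689 and 503 counts, a log2 ratio of -0.17 (-0.34 to -0.01). Of the 4 negative regulators, 2 (50%) had intervals above 0 and 1 below, against the same 18.1% and 33.5% of all genes. Ptpn6, a phosphatase, had 446 and 537 counts, a log2 ratio of 0.55 (0.36 to 0.73), and Socs3 had 795 and 884, a log2 ratio of 0.43 (0.29 to 0.57). Pias1 had 527 and 326, a log2 ratio of -0.41 (-0.62 to -0.21), and Socs1 had 93 and 70, with an interval that held 0 (-0.60 to 0.33).

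Interferon-stimulated genes outside the naming rule were also mostly higher. Of 20 listed, 19 were above the floor, with a median of 0.999. Of these 16 (84.2%) had intervals above 0, against 18.1% of all genes, and 9 (47.4%) were at least 2-fold higher, against 6.32%. Of the 14 that passed EV, 5 (35.7%) were upregulated, against 2.61% of all genes that passed. Slfn1, of the Schlafen family, had 19 and 116 counts, a log2 ratio of 2.89 (2.18 to 3.67), and Ly6e, a membrane protein that alters virus entry, had 2747 and 4618 counts, a log2 ratio of 1.03 (0.96 to 1.10). Slfn2, of the same family as Slfn1, had 157 and 476 counts, a log2 ratio of 1.88 (1.62 to 2.15). The other 2 upregulated genes were Trim30a, with 166 and 370 counts and a log2 ratio of 1.44 (1.17 to 1.71), and Lgals3bp, with 884 and 1877 counts and a log2 ratio of 1.37 (1.25 to 1.48). B2m, the light chain of MHC class I, had the most counts, 6104 and 7181, and a log2 ratio of 0.52 (0.47 to 0.56). Slfn9 had 180 and 83 counts, a log2 ratio of -0.84 (-1.23 to -0.45).

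**Figure D5:**
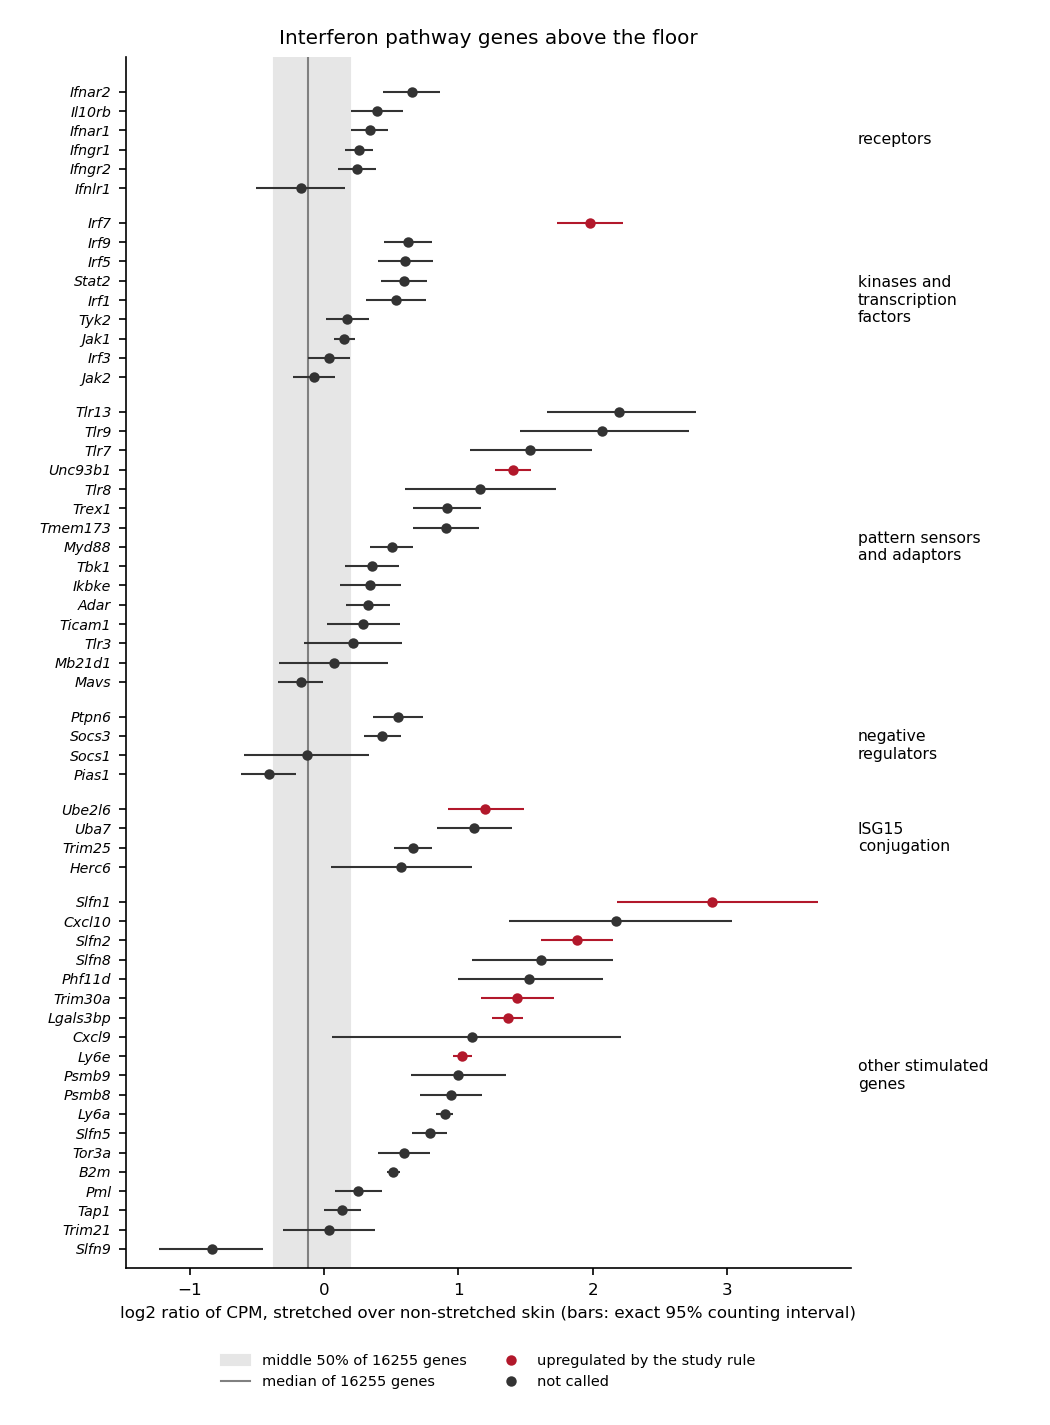
The log2 ratio of CPM, stretched over non-stretched skin, with its exact 95% counting interval, for the genes of the interferon pathway above the floor, by list, over the median and the middle 50% of all genes. The receptors, kinases and transcription factors other than Irf7 lie between -0.17 and 0.65, with Irf7 apart at 1.98, and the ligands have no point because none was above the floor.

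Markers of several cell types also differed between the libraries, and fewer cells of a type and less RNA per cell cannot be told apart in whole skin. Beside the marker counts here and in the next paragraph, 18.1% of all genes above the floor had intervals above 0 and 33.5% below. Of all genes that passed EV, 2.61% were upregulated. Of 10 macrophage markers all were above the floor, 9 had intervals above 0 and 7 were upregulated, with a sum of 701 CPM in non-stretched and 1631 CPM in stretched skin, a log2 ratio of 1.22 (1.18 to 1.25). Fcgr1, itself known as interferon-inducible, had the largest ratio of these, 2.68, from 49 to 259 counts, while Mertk had 321 and 243 counts. The neutrophil markers, 6 of the 7 matched in the table above the floor with Ngp at 0, summed to 14.7 and 70.1 CPM, with 5 intervals above 0. The conventional dendritic and Langerhans cell markers, 7 of 7 above the floor, summed to 27.2 and 46.2 CPM, with 4 intervals above 0 and 3 that held 0. Itgax, which macrophages also express, had the largest ratio of these, from 47 to 152 counts, while Xcr1 had 28 and 17. The T cell markers, 6 of the 7 matched above the floor, summed to 12.01 and 17.3 CPM, but 5 of the 6 had intervals that held 0, and the exception was Cd4, with 15 and 56 counts. The NK cell markers, 5 of 6 above the floor, summed to 2.83 and 4.81 CPM with 2 intervals above 0, and the B and plasma cell markers, 2 of 5 with Ms4a1 at 0, to 0.636 and 1.12 CPM with none. The part of these cells in the members' differences was not tested.

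The plasmacytoid dendritic cell is a main source of type I interferon elsewhere in the body. Its listed markers other than Ly6d and Cox6a2 had few counts, and whether this cell was present was not tested. Siglech, its defining marker, had 11 counts in each library, Ccr9 had 16 and 13, and Klk1 had 0. Of that list 5 of 6 were above the floor, with 1 interval above 0 and 1 below, and its sum, 306 and 413 CPM, came mostly from Ly6d and Cox6a2, which keratinocytes and muscle also express. Keratinocyte markers summed to 15167 and 15698 CPM over 6 genes, a log2 ratio of 0.05, but they differed among themselves: 3 had the interval wholly above 0 and 2 wholly below. Krt14 had a log2 ratio of 0.28, while Krt15 and Trp63 had -0.46 and -0.49. Fibroblast markers, 5 of 5 above the floor, summed to 26819 and 49616 CPM, mostly Col1a1 and Col1a2, with a median log2 ratio of 0.25. Endothelial markers, 5 of 5, summed to 208 and 291 CPM, with 4 intervals above 0 and Kdr below. Mast cell markers, 6 of 6, summed to 260 and 358 CPM, with 4 intervals above 0 and Kit below. Adipocyte markers (553 and 333 CPM), skeletal muscle markers (23322 and 13817 CPM) and melanocyte markers (287 and 127 CPM) had the lower sum in stretched skin, with none at 0. The adipocyte marker Cidea went the other way, with 143 and 229 counts and a log2 ratio of 0.96 (0.65 to 1.27). The muscle markers ran from -0.07 for Acta1, which turned positive under TMM, upper quartile and median of ratios, to -4.57 for Myh4, which went from 6432 to 271 CPM.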

How the data were processed

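RNA was sequenced from 1 library of stretched and 1 of non-stretched whole-layer mouse skin. The authors deposited counts of reads per gene symbol, not normalized. The methods of the study describe single-end reads of 76 bases, and the submitters' processing notes name TopHat2 and mm10. Which program counted the reads, on which annotation, and how it handled strand or reads of several genes is not given in the sources used here, so overlapping and near-identical genes are uncertain.

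Symbols were matched to GENCODE M21 on GRCm38 (the assembly of mm10) by name (23376) or synonym (656), and 389 had no length. FPKM used the total count and the union of the exons of each gene. A gene was called where EV exceeded 10 and the fold change reached 2 upward or 0.5 downward. The pseudocount of 1 is a choice. Other differences are ratios of CPM with counts of 3 or fewer set to 3, and exact 95% Clopper-Pearson intervals from scipy 1.17.1. Intervals and floors cover counting error only. They take each read as an independent draw, so they are too narrow where reads are not independent. The scripts were tested on simulated data. With 1 library per condition no test was run.

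All members could be named. Full values were given for the members with the most counts and the largest and smallest ratios of each role group, those called, those below 0, and 12 well-known genes, and the pathway lists followed the same rule. The members, role groups, motifs and lists were chosen with earlier results of these data known. Of the 53 members 10 share at least 10% of their 76-base stretches with another gene and 4 overlap other exons by at least 10%. Both were left out in alternatives, beside scaling by the median of ratios (DESeq2 1.42.0), TMM or upper quartile (edgeR 4.0.16), or by totals that leave out the top 50 genes, other pseudocounts and EV limits, CPM in place of FPKM, and a minimum of 20 counts. Promoters are RefSeq windows of GRCm38.p6. Protein sequences were not used here, and 1 gene of the pathway lists is not reported here.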

Additional observations from a re-analysis of the deposited data

How the results depend on the processing

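No library could be left out, with 1 per condition. No paired analysis was possible because each group has 1 sample and no test was run. The summed log2 ratio of 0.88 was 0.98 under TMM, 0.98 under upper quartile, 0.99 under median of ratios, 0.94 when the top 50 genes were left out of the totals, and 0.94 without members that overlap other exons. The 15 members upregulated by the study rule of 35 that passed (42.9%, against 2.61% of all genes) were 4 of 13 with EV above 100 (30.8%, against 2.56%), 11 of 28 and 11 of 29 with a pseudocount of 0 and 0.1 (39.3% and 37.9%, against 2.94% in both), 20 of 53 without the EV filter (37.7%, against 2.21%) and 20 of 46 with CPM in place of FPKM (43.5%, against 3.36%). Under the 4 scalings the 15 were the same genes. The 27 members at least 2-fold higher became 31 to 33 under the 4 scalings, 22 with 1 CPM added, 20 of 43 without members that share stretches, and 26 of 49 without those that overlap. The median of 1.12 ranged from 0.87 with 1 CPM added to 1.23 under median of ratios, and was 0.96 without members that share stretches. Of 212 values of single members under the 4 scalings, 206 stayed within their counting interval and 0 changed sign. Depth limits Ifit1bl1, Ifit1bl2, Oas1e and Ifitm5 most, each with at most 17 counts in a library.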
